A study of Mus musculus with 12 samples.

Results

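In mouse colorectal tissue, 25 probes of a custom array design had a high signal at 10w of a colon cancer model, in which azoxymethane (AOM) is followed by dextran sulfate sodium (DSS), and a low or lower signal at 0w, 1w and 2w. Of these, 10 were not well above background on any earlier array, 6 were so on some of the 9 earlier arrays, and 9 were so on all of them. The difference between the 10w mean and the highest earlier mean ran from 2.00 to 6.74 on the log2 scale, with a median of 2.96. This difference is called the rise below. The 25 are the custom probes that met the rule, among 78857 considered, on arrays with 145548 different probes. They were chosen by their deposited log2 values on all 12 arrays. The 0w, 1w and 2w means had to lie within 0.75 of each other, the 10w mean had to be at least 2 above each of them and at least 6, and each 10w array had to exceed each earlier array. A block of 15000 custom probes, with IDs from 75000 to just under 90000, was not considered. Because each array served in the choice, the values are a description and no test is given for them.

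The 10w arrays held tissue that the labels call tumour, from mice given AOM and DSS. They were set against 3 groups, namely untreated mice at 0w with normal tissue, mice given AOM alone at 1w, and mice given AOM and DSS at 2w. The 1w and 2w tissues carry the label colitis, although DSS began only after the first week. All animals were male C57BL/6 mice, with no age stated. In the full protocol AOM was injected once at 10 mg/kg, and 2% DSS was drunk for 7 days beginning 7 days later. Plain water followed for 14 days, and there were 3 DSS cycles. By this timing, 1w came before DSS and 2w at the end of the first DSS course. Only the 10w mice could have had all 3 cycles, so 2w and 10w differ in DSS cycles as well as in time. Each group had 3 arrays. The labels do not say that each array held a separate animal, so the SDs below measure the spread between arrays, part of which may be technical.

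AOM is a DNA-alkylating carcinogen, and DSS damages the epithelium that lines the colon. Cycles of injury and repair after AOM give rise to epithelial tumours, which in this model commonly carry active Wnt signalling. The series set out to follow long non-coding RNAs, transcripts that are not translated into protein, together with mRNAs. Long non-coding RNAs are often scarce and restricted to few tissues. The files do not pair any custom probe with a gene, and they do not say whether a probe targets a coding or a non-coding transcript. The probes are therefore named by their IDs, and no role is given for them. For the same reason the tissue labels could not be checked against markers of epithelium, immune cells, stroma or tumour. In whole tissue, more cells of a type and more RNA per cell cannot be told apart.

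Between 59306 and 64594 probes were well above background per array at 10w, against 48437 to 58381 on the earlier arrays. Before scaling between arrays, the 10w arrays were also brighter. Replicates 1, 2 and 3 had median scanner signals of 11.15, 10.3 and 10.06, each taken across the array's probes without log2 transformation. The medians of the earlier arrays, also untransformed, lay between 4.98 and 6.68. Whether this brightness affected which probes counted as well above background, and so the sorting of members by earlier arrays, was not tested. The 10w arrays shared 1 slide and a later scan day that held no other group. Slide, scan and tumour state cannot be told apart, and this applies to each value below.

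The sequences of the 8 probes with the largest rises are shown because they head the list by deposited values, and CUST_OEV3_055752 is added because it overlaps them. They are printed 5′ to 3′ as the scanner files give them, without a genome position, since the files list the probes as unmapped. Capitals mark a stretch of 48 bases, from base 1 to 48 in CUST_OEV3_055750 and CUST_OEV3_013956 and from base 13 to 60 in CUST_OEV3_055752.
CUST_OEV3_072194: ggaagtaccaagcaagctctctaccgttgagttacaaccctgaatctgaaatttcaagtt
CUST_OEV3_090241: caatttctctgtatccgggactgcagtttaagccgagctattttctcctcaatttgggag
CUST_OEV3_008741: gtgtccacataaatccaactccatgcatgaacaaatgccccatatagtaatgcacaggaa
CUST_OEV3_074348: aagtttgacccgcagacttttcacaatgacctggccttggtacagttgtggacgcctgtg
CUST_OEV3_063941: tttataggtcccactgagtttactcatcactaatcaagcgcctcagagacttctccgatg
CUST_OEV3_055750: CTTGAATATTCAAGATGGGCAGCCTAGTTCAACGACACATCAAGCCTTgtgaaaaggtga
CUST_OEV3_013956: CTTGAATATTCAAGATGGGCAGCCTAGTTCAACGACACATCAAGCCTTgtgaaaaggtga
CUST_OEV3_052674: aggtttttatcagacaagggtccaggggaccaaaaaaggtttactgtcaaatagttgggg
CUST_OEV3_055752: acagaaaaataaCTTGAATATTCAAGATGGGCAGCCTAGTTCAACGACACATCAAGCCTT

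A further set is shown because each sequence was spotted under 2 IDs, which gives a repeat measurement on the same array. CUST_OEV3_047255 and CUST_OEV3_072614 are identical over 60 bases. CUST_OEV3_051805 is identical to CUST_OEV3_006082, which did not meet the rule. Counting probes that share at least 30 bases once, the 25 members hold 22 distinct sequences, so they are not 25 independent measurements. None of the members shares 20 bases or more with a catalogue probe of the array.
CUST_OEV3_047255: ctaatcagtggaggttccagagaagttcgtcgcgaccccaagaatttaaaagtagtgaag
CUST_OEV3_051805: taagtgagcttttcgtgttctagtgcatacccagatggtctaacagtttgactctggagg

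The 10 members with no earlier array well above background were seen on all 3 arrays at 10w. Each of these has only an approximate lower limit for its fold, since the earlier signal was too dim to measure. The limit compares the 10w mean of scaled scanner signals with the lowest signal among probes well above background on each earlier array, or with the probe's own value where that was higher. Against 0w these limits ran from 6.44-fold to 32.9-fold, and against 1w from 6.37-fold to 31.5-fold. Against 2w they ran from 5.76-fold to 30.6-fold. The limit of 5.76-fold was for CUST_OEV3_051805, whose deposited 10w mean was 5.2-fold above its 2w mean. The limits therefore do not hold under every scaling. Their deposited rises, whose size and order depend on values not well above background, had a median of 4.73 on the log2 scale.

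CUST_OEV3_072194 had the largest rise of the 25 in the deposited values, although its earlier values were not well above background. Its deposited log2 values were 1.54, 1.45 and 2.35 at 0w, 2.64, 1.43 and 1.40 at 1w, 1.38, 1.40 and 1.51 at 2w, and 8.43, 9.31 and 7.94 at 10w. All 3 arrays at 10w lay above all earlier ones. The deposited 10w mean was 8.56 ± 0.69 (SD, n = 3). In the scaled scanner signals the 10w mean was at least 32.9-fold above 0w.

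CUST_OEV3_090241 had log2 values of 1.73, 1.67 and 2.72 at 0w, 1.84, 1.57 and 2.52 at 1w, 1.59, 1.72 and 1.66 at 2w, and 7.10, 8.84 and 7.14 at 10w. Replicate 2 stood above the other 10w arrays, which nearly coincided, and the SD at 10w was 0.99. Its signal at 10w was at least 18.7-fold above 0w. CUST_OEV3_008741 had log2 values of 1.37, 2.39 and 1.42 at 0w, 1.43, 2.78 and 1.35 at 1w, 1.37, 1.62 and 1.39 at 2w, and 7.13, 8.01 and 7.23 at 10w. Its 10w arrays lay closer together, with a mean of 7.46 ± 0.48 (SD, n = 3), and it was at least 16.0-fold above 0w.

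CUST_OEV3_074348 had log2 values of 1.39, 2.04 and 3.62 at 0w, 2.04, 1.54 and 2.67 at 1w, 1.52, 1.5 and 2.79 at 2w, and 8.14, 6.78 and 6.67 at 10w. Here replicate 1 was the highest 10w array, and the early values reached 3.62 although no early array was well above background. CUST_OEV3_063941 read 5.42, 6.84 and 6.67 at 10w, against 1.40 to 1.56 on the 9 earlier arrays. At 10w CUST_OEV3_074348 was at least 13.5-fold and CUST_OEV3_063941 at least 7.68-fold above 0w.

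CUST_OEV3_055750 read 5.93, 7.51 and 6.31 on the log2 scale at 10w, against 1.36 to 2.89 on the earlier arrays. CUST_OEV3_013956, of the same sequence, read 5.87, 7.16 and 5.91 at 10w, against 1.55 to 2.18 earlier. CUST_OEV3_055752, which shares the 48 capital bases with both, read 5.45, 6.94 and 5.89 at 10w, against 1.44 to 3.83 earlier. In all 3 probes replicate 2 was the highest 10w array and replicate 1 the lowest. The other members of this class, CUST_OEV3_024051 and CUST_OEV3_051805, had 10w means of 6.43 ± 0.64 and 6.09 ± 0.44 (SD, n = 3 each), against earlier arrays of 2.51 to 4.08 and 2.69 to 3.95.

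The 6 members seen on some earlier arrays had rises from 2.11 to 3.75 on the log2 scale. CUST_OEV3_052674 had log2 values of 4.04, 4.05 and 3.98 at 0w, 3.93, 3.07 and 4.29 at 1w, 3.97, 3.57 and 3.89 at 2w, and 7.49, 8.55 and 7.27 at 10w. It was well above background on 2 arrays at 0w, 2 at 1w and none at 2w. In the scaled scanner signals, not the deposited values just given, its 10w mean was at least 16.8-fold above 2w. CUST_OEV3_008742 read 7.64, 8.30 and 7.79 at 10w, against 3.81 to 5.77 on the earlier arrays, of which 8 were well above background. This probe carries the ID number next to that of CUST_OEV3_008741, with no long shared stretch, and is taken up again with the neighbouring IDs.

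CUST_OEV3_008967 had the smallest spread at 10w, with 6.37, 6.70 and 6.56 on the log2 scale (SD 0.17), against 2.78 to 5.27 earlier. Its earlier arrays varied more than its 10w arrays, with SDs of 1.28 at 0w, 0.93 at 1w and 0.92 at 2w. CUST_OEV3_036768 read 6.87, 6.94 and 6.34 at 10w (SD 0.33), against 2.82 to 4.33 earlier. It was seen on 2 arrays at 1w and on none at 0w or 2w, so its 10w signal was at least 8.95-fold above 0w and at least 9.0-fold above 2w. CUST_OEV3_063794 and CUST_OEV3_042463 had 10w means of 6.31 ± 0.65 and 6.84 ± 0.75 (SD, n = 3 each) and rises of 2.47 and 2.11.

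The 9 members seen on all 12 arrays give folds measured on both sides. Their rises ran from 2.00 to 3.72 on the log2 scale, with a median of 2.45. CUST_OEV3_072315 had the largest of these. Its log2 values were 4.35, 4.36 and 4.96 at 0w, 4.53, 4.91 and 5.0 at 1w, 5.05, 4.96 and 5.26 at 2w, and 8.61, 9.57 and 8.24 at 10w. The earlier means were 4.56 ± 0.35, 4.81 ± 0.25 and 5.09 ± 0.15 (SD, n = 3 each), a range of 0.53 that the rule allowed, and the 10w mean was 8.81 ± 0.69 (SD, n = 3).

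CUST_OEV3_053951 was the member with 10 spots on each array, while the other 24 had 1. It had log2 values of 6.22, 6.25 and 6.09 at 0w, 6.00, 6.09 and 6.02 at 1w, 5.56, 5.54 and 5.66 at 2w, and 8.38, 9.50 and 8.38 at 10w. The 10w mean was 5.94-fold above the 0w mean, which was the highest earlier one. On the scanner scale, before scaling between arrays, its spots had log2 medians of 8.46, 9.69 and 8.46 at 10w, with SDs among spots of 0.07, 0.06 and 0.04. All 10 spots of replicate 2 lay between 9.61 and 9.78, above the highest spot of replicates 1 and 3, at 8.60 and 8.51. The spread among the 10w arrays, an SD of 0.64, was therefore larger than the spread among spots of 1 array.

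CUST_OEV3_042271 was bright at all times, with log2 values of 7.17, 7.06 and 7.57 at 0w, 7.10, 7.36 and 7.09 at 1w, 6.94, 6.81 and 7.17 at 2w, and 9.06, 9.93 and 9.02 at 10w. The 10w mean was 4.21-fold above the highest earlier mean. CUST_OEV3_070842 read 7.87, 8.58 and 8.03 at 10w, against 4.92 to 5.95 on the earlier arrays. CUST_OEV3_010521 read 7.29, 8.45 and 7.93 at 10w, against 5.56 to 6.15 earlier.

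The smallest gap of the 25 was also in this class. CUST_OEV3_062965 read 8.55, 8.48 and 7.79 at 10w, against 5.58 to 6.91 earlier, and its lowest 10w array lay 0.87 above the highest earlier one, a 2w array. CUST_OEV3_053185 read 7.94, 8.92 and 7.99 at 10w, with a 2w mean of 6.28 ± 0.58, a 1w mean of 5.67 ± 0.26 and a 0w mean of 5.60 ± 0.11 (SD, n = 3 each). Its 2w arrays read 5.68, 6.33 and 6.83, so that 1 of the 3 lay within the range of the 0w arrays and 2 lay above it.

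CUST_OEV3_047255 and CUST_OEV3_072614, the probes of identical sequence, had the largest spread at 10w. CUST_OEV3_047255 had log2 values of 4.62, 5.44 and 5.55 at 0w, 4.78, 5.53 and 5.44 at 1w, 5.23, 5.41 and 5.22 at 2w, and 10.82, 8.36 and 6.94 at 10w. CUST_OEV3_072614 had 4.48, 5.42 and 5.23 at 0w, 4.56, 6.14 and 5.83 at 1w, 5.25, 5.49 and 5.41 at 2w, and 10.89, 8.30 and 7.08 at 10w. The SDs at 10w were 1.96 and 1.95, while the probes differed from each other by no more than 0.14 on any 10w array. Both probes thus gave the same order of the 10w arrays, with replicate 1 high, replicate 2 between and replicate 3 low. Their 10w means of 8.71 and 8.76 rest on arrays that span 3.88 and 3.81, so the rises of 3.42 and 3.25 have large errors.

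Within each other set of identical sequence the difference at 10w was also small beside the rise. CUST_OEV3_055750 and CUST_OEV3_013956 differed by at most 0.39 on the log2 scale at 10w and by at most 1.25 at 1w, where neither was well above background. CUST_OEV3_055751, a further copy that did not meet the rule, read 5.86, 7.13 and 5.93 at 10w, within 0.03 of CUST_OEV3_013956. It was left out because its earlier means spread by 1.27, with 2.68 ± 0.64 at 2w and 1.41 ± 0.03 at 0w (SD, n = 3 each), and no earlier array was well above background. CUST_OEV3_006082, the copy of CUST_OEV3_051805, read 5.71, 6.51 and 5.61 at 10w and had an early range of 1.21. Its 10w mean of 5.945 was also below the minimum level of the rule. It was well above background on 1 array at 0w, whereas CUST_OEV3_051805 was so on no earlier array. For 165 custom pairs of identical sequence with both 10w means at least 6, each pair's median difference over the 10w arrays was taken. These had a median of 0.12 and a 95th percentile of 0.59. The differences given above for members are instead the largest over the 10w arrays.

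The 3 arrays at 10w were unequal for these probes. Replicate 2 was the highest 10w array for 21 of the 25 members and replicate 1 for 4, and the lowest was replicate 1 for 15 and replicate 3 for 10. Among 10079 tested custom probes with a 10w mean of at least 6, replicate 2 was the highest for 24.8%. Among the 99 catalogue probes that met the same numeric criteria, replicate 2 was the highest for 93. Replicate 2 was the highest for 20 to 22 of the members under all 6 scalings tried. The members' SD at 10w had a median of 0.65, against 0.67 over the 99 catalogue probes and 0.22 over the 10079 custom probes, which were not chosen for a rise. An SD of at least 0.5 was found in 18 of 25 members, or 72%, and in 7.39% of the 10079. What sets replicate 2 apart was not tested. Without it, 19 custom probes met the rule, 16 of them members.

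Some probes next to a member in the ID numbering also had a higher 10w mean. Of 46 custom probes that were not members, with an ID next to a member's and fewer than 30 shared bases, 10 (21.7%) had a rise of at least 1 and 5 (10.9%) of at least 2. On all 3 arrays at 10w, 6 of these 10 and all of the 5 were well above background. Over all custom probes considered the shares were 2.79% and 0.218%. The files do not say how IDs were assigned, and whether neighbours lie in 1 transcript was not tested. The neighbours named next were chosen after their values were seen. Within 2 IDs of a member, the longest run of rises of at least 2 held 4 IDs in a row, from CUST_OEV3_008740 to CUST_OEV3_008743, of which CUST_OEV3_008741 and CUST_OEV3_008742 are members. CUST_OEV3_008740 read 6.69, 7.42 and 6.92 at 10w, with a rise of 3.81, and CUST_OEV3_008743 read 8.24, 9.13 and 8.52, with a rise of 4.88. These 2 were not members because their earlier means spread by 0.92 and 1.09. In all 4 probes of the run, replicate 2 was the highest 10w array. CUST_OEV3_070840, 2 IDs from CUST_OEV3_070842, had a rise of 3.47 and a 10w mean of 5.49 ± 0.61 (SD, n = 3), below the minimum level of the rule. CUST_OEV3_052676, 2 IDs from CUST_OEV3_052674, read 8.79, 9.46 and 8.52 at 10w, with a rise of 2.59 and an early range of 0.92.

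The base composition of the members was set beside that of the custom design. Their GC content had a median of 43.3%, from 36.7% to 51.7%, and the median over the 78857 custom probes was also 43.3%. No CG dinucleotide was present in 9 of 25 members (36%), against 58.2% of the custom probes. The 25 include repeated sequences, and the 5 members that share sequence with another member all held a CG. None of the 25 matched 20 or more bases of either strand in the RefSeq tables for the GRCm38.p6 build, which held 32851 mouse promoters and 2743 miRNA sequences. No match says only that these bases are not in those windows.

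Probes close to the limits of the rule show how members shade into non-members. The smallest accepted rise was 2.0006 in CUST_OEV3_010521, and CUST_OEV3_017365, with 1.97, lay just outside. For the early range, CUST_OEV3_036768 was inside at 0.748 and CUST_OEV3_060120 outside at 0.839, and 16 probes failed on that criterion alone. CUST_OEV3_051805 had a 10w mean of 6.09, just above the minimum of 6, and CUST_OEV3_063066 fell short at 5.87 with a rise of 3.98. Of the 78857 custom probes, 172 had a rise of at least 2, and 43 of these had a 10w mean of at least 6. Among them 41 had all 10w arrays above all earlier ones, and 25 also met the range. The members are 0.0317% of the custom probes considered, and the catalogue probes that met the same criteria are 0.192% of 51691. With 0w, 1w or 2w in the place of 10w, no custom probe met the rule.

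The scale of change over the whole array gives the background for these values. The 25 members were all among the 62388 probes tested with limma, which were well above background on at least 3 arrays. All 25 were called higher at 10w in each contrast at a Benjamini-Hochberg adjusted p below 0.05, and nothing is read from this, since the same contrasts chose them. Of all tested probes, 22.8% were called higher at 10w than at 0w, 17.5% than at 1w and 23.4% than at 2w. The 3 contrasts share the 10w arrays. The median change over all tested probes was 0.23, 0.24 and 0.27 on the log2 scale in these contrasts, and 0.0062, 0.0104 and 0.0089 in the deposited values that gave the rises above. The split depended on scaling. At 10w against 0w, 14213 probes were higher and 6477 lower, but 6794 and 13364 with the percentile taken over all probes, and 8692 and 9622 with quantile normalization. At 10w against 1w, 10922 were higher and 5135 lower, and the higher calls were 6015 without 1w replicate 2, 6133 without 10w replicate 1 and 7098 without 10w replicate 2. At 10w against 2w, 14623 were higher and 4717 lower, and the higher calls were 8711 without 2w replicate 3 and 8841 without 10w replicate 1. Under all 6 scalings each of the 25 had its 3 arrays at 10w above its 9 earlier arrays, with median rises from 1.5 with normexp background correction to 3.37. The deposited values are among the 6, and there the rule required this separation. The other scalings use signals of the same arrays.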

How the data were processed

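Total RNA of 12 colorectal samples was measured on 1-colour Agilent arrays. Per the file headers, each deposited intensity came from Agilent Feature Extraction 10.7.1.1, which subtracted background, detrended the signal and replaced low values by a surrogate. The authors also deposited a table of log2 values per probe. How it was normalized is not given in the sources used here; all columns had a median of 2.92 and nearly the same quantiles. Detection used the deposited flag for spots well above background.

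Members were selected on the deposited log2 values. They and the lists were chosen with earlier results of these data known. For limma 3.58.1 (R 4.3.3), outlier spots were dropped, spots of 1 probe averaged, and log2 processed signals scaled by each array's 75th percentile, taken over 42343 probes that passed this flag on all 12 arrays. Probes that passed it on at least 3 were tested, in 1 fit with 4 group means and Benjamini-Hochberg adjustment. The limma fit was also run on simulated data with independent noise. The simulation held no slide, scan or scaling effect, so it cannot speak to these. Alternatives were other scalings, filters, rule limits, blocks and leaving out arrays. The rule for named probes took the 8 largest rises, the 6 highest 10w means, the largest and smallest 10w SDs (3 each), the probes at the rule's limits, and members of shared sequence. The remaining members are named as well, so that all 25 are accounted for, and neighbours by ID were named after their values were seen. Cell type markers could not be applied, since probes are not paired with genes. The labels do not say that replicate numbers pair samples, so no pairing was used in the main fit. Deviations of same-numbered arrays correlated at -0.099 to 0.191, and those of different-numbered arrays at -0.235 to 0.202. These values do not settle whether samples were paired. The 3 arrays per group limit the precision.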

Additional observations from a re-analysis of the deposited data

How the results depend on the processing

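The number of custom probes that met the rule, 25 on the deposited values, depended on the choices. It was 39 with signals scaled by the percentile over detected probes (24 of them members), 7 with normexp and quantile normalization (5 members, and also 7 with no minimum level), 51 with a rise of at least 1.5, 12 with a rise of at least 3, 47 with a 10w mean of at least 5 and 15 with at least 7. Leaving out 1 array at a time gave 19 to 31, and 11 members met the rule in all 12 such selections. The median over the members of the 10w mean minus the mean of the earlier means was 3.10 (SD 0.44 over the 10w arrays). It was 2.91 to 3.27 without 1 array and 1.73 with normexp. An offset of 50, as added there, by its construction shrinks differences that start from dim signals. Normexp also started from spot means and background medians, not from processed signals. What gave the lower value was not tested. With 1 member per shared sequence, an alternative chosen after seeing the data, the median was 3.02.

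Over all tested probes, calls without 1 array ran from 14471 to 17689 at 10w against 0w, 9137 to 14743 against 1w and 11249 to 15795 against 2w, and cyclic loess gave 11418 against 2w. The cause was not tested. With cyclic loess the higher and lower calls were 8653 and 8476 against 0w, 5126 and 6500 against 1w, and 5301 and 6117 against 2w. With the percentile over all probes they were 4177 and 11282 against 1w, and 5784 and 13816 against 2w, and quantile normalization gave 5418 and 7570, and 6005 and 7026. Against 0w, 1w and 2w, normexp gave 9372 and 10078, 6785 and 7905, and 6750 and 7598, and the deposited values 8650 and 9570, 5347 and 7507, and 5935 and 6974. The replicate block gave 19815, 14934 and 18252 calls against 0w, 1w and 2w, where the fit without it gave 20690, 16057 and 19340. Slide as a random block gave more calls, 24308, 20600 and 24764, with an estimated slide correlation of -0.089. Because the 10w arrays had a slide to themselves, this block cannot separate slide from tumour state. All 25 members were called higher in each setting except among probes detected on all 12 arrays, where only 9 could be tested. Nothing is read from these calls, since the same contrasts chose the members. The 10 members not detected before 10w also entered the test through their 10w arrays alone. For the 10 members not detected before 10w, the signal over background limits each fold to an approximate lower bound.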
